A study of Homo sapiens with 15 samples.

Results

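High butyrate with palmitate was set against palmitate alone in HepG2, a cell line derived from a human liver tumour that keeps part of the hepatocyte programme. The comparison takes 6 of the 15 libraries, 3 from cells given palmitate with 1.5 mM sodium butyrate and 3 from cells given palmitate, and covers every gene with enough counts to be tested, 20309 of 39133 in the deposited table. The other libraries of the experiment, used here for reference, are 3 each of palmitate with 0.5 mM butyrate (low), palmitate with 1 mM butyrate (medium) and untreated control cells. According to the series text, palmitate was used to make the cells insulin resistant and the study asked what butyrate changes in that state. The labels give palmitate as 200 mM for each palmitate group, a unit whose correctness is not known, and a harvest at 48 h for all libraries. By the library names, butyrate-treated cells had 24 h of palmitate and as long with butyrate, whereas cells given palmitate alone had it for 48 h. No group received butyrate without palmitate. Butyrate and the shorter time on palmitate therefore cannot be told apart in any difference between high butyrate and palmitate alone. No added RNA standard is recorded, so every value is relative to its library.

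Butyrate is a short-chain fatty acid made by gut bacteria, which reaches the liver through the portal vein. It inhibits class I and class II histone deacetylases, the enzymes that remove acetyl groups from histone tails. Acetylated histones mark open chromatin, and inhibitors of this kind are known to slow the cell cycle, partly through the kinase inhibitor p21, and to raise transcripts of genes that a cell type normally keeps silent. Butyrate is also a fuel, activated to its CoA ester and oxidised in mitochondria. Palmitate is a saturated fatty acid that hepatocytes oxidise, elongate or store as triglyceride.

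Total counts were 43917285, 47320903 and 46436616 in the high butyrate libraries, against 52060396, 45627010 and 61086976 in the palmitate libraries. At least 1 count was found for 28770 ± 451 genes with high butyrate and 24753 ± 448 with palmitate (SD, n = 3 each; exact two-sided permutation p = 0.1, the smallest that 3 against 3 allows). Counts of genes named MT-, of the mitochondrial genome, took 12.7% ± 1.21 of the total with high butyrate and 9.71% ± 0.952 with palmitate, at the same p. Of 9 hepatocyte markers, 2 were called higher and 5 lower, and their summed FPKM ran from 5238 to 5430 in high butyrate against 5545 to 6299 in palmitate libraries. The cells thus carried the transcripts of the labelled type in both groups. The coefficient of common biological variation between replicates, 1 estimate over all 5 groups, was 8.88%. Between 2 palmitate libraries the chi-square of counts per gene was 57.8 for libraries 1 and 2, 32.5 for 1 and 3 and 18.1 for 2 and 3. Between high butyrate libraries it was 15.2, 20.7 and 7.93, so palmitate replicates mostly differed more, though this value also grows with total counts. The series text calls the replicates biological, but nothing says whether they were separate cultures started on different days, so p-values measure the spread between these libraries.

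Palmitate library 1 stood apart from palmitate libraries 2 and 3. On the second principal component over all genes tested (11.5% of the variance), it lay at 12.7, against 33.0 and 31.9. Control libraries lay from 9.66 to 11.8 there. On the first (67.1%) it lay at -97.9, against -94.4 and -93.2, farther from control (-88.2 to -87.9). How far the genes described next set these positions was not tested. In all, 52 tested genes had at least 0.5 CPM (counts scaled by the normalised library size) in library 1 and at least 10 times the level of libraries 2 and 3, a choice made after the values were seen and given here without a test. Their summed level was 99.4 CPM in palmitate library 1 but 1.40 and 1.58 CPM in palmitate libraries 2 and 3. It ran from 21.8 to 23.4 CPM in the high butyrate libraries, between 114 and 142 in the low and medium butyrate libraries and between 78.0 and 104 in the control libraries. VIM, encoding the filament protein vimentin of mesenchymal cells, had 0.111, 0.12 and 0.0806 CPM with high butyrate, against 7.71, 0.133 and 0.0857 CPM with palmitate. The genes MSN, EMP1, CD44, KRT7 and CDH5 behaved likewise in the palmitate libraries, and 51 of the 52 were above palmitate 2 and 3 in all 9 control, low and medium libraries. No gene met the same rule with palmitate library 2 in the place of library 1, and 1 did with library 3.

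**Figure D1:**
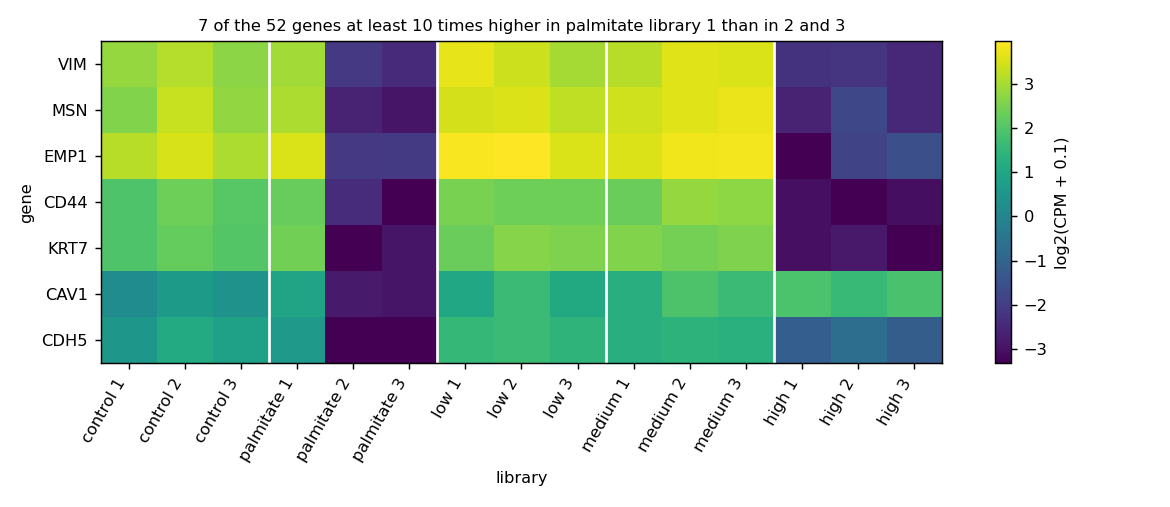
Level of 7 of the 52 genes in the 15 libraries, as log2(CPM + 0.1), with libraries in columns and white lines between groups. Palmitate library 1 resembles the control libraries in these genes, while palmitate libraries 2 and 3 are near the bottom of the scale.

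Calls on these genes rest on which palmitate libraries are used. With all 3, high butyrate was called lower than palmitate for 21 of the 52 and higher for 8. Without palmitate library 1 none was called lower and 30 were called higher. The rule that chose these genes largely sets this shift, since it required the other palmitate libraries to lie far below library 1. With only those low libraries as the baseline, falls could hardly be called and rises were favoured. The shift is therefore a description and no result. For VIM the log2 change was -4.62 with all libraries and -0.05 without palmitate library 1. For CDH5, a cadherin of endothelial cells, it was -0.17 with all libraries. CDH5 had 0.356, 0.518 and 0.343 CPM with high butyrate but 0 CPM in palmitate libraries 2 and 3. No fold is therefore given for CDH5 without palmitate library 1. Against control, high butyrate was lower for 35 of the 52 and higher for 4. Their part in other results was not tested, but over all genes the counts of calls moved little: without palmitate library 1 there were 7867 genes higher and 6685 lower.

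With all libraries, 7663 genes were higher and 6869 lower with high butyrate than with palmitate, which is 37.7% and 33.8%, together 71.6%, of the genes tested. A gene was called at a Benjamini-Hochberg adjusted p under 0.05 in the quasi-likelihood test of edgeR, adjusted over all 20309 genes, and the same holds wherever a gene is said to rise or fall. Over all genes, large rises outnumbered large falls. At least 2-fold rises were called for 4869 genes against 2732 falls of that size, at least 10-fold rises for 1703 against 87 falls, and at least 50-fold rises for 602 against 14. The excess of 2-fold rises lay in genes averaging below 2 log2 CPM. From 2 to 5 log2 CPM, 817 genes rose and 979 fell at least 2-fold. From 5 to 8 these were 244 and 833, and above 8 they were 27 and 91. For 72.1% of genes every library of one group lay on the same side of all libraries of the other, 38.6% with high butyrate above and 33.5% with it below.

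Direction was counted by abundance. In the least abundant class, 6187 genes averaging below 0 log2 CPM, rises made up 45.8% and falls 9.04%, with a median log2 change of 0.94. Genes near silence in palmitate enter this class only through groups where they are higher, so its excess of rises is in part set by the filter on low counts. With at least 1 CPM in 3 libraries as the filter, 6053 genes were higher and 5926 lower. Among 4988 genes with an average from 5 to 8, 27.7% rose and 55.6% fell, with a median of -0.27. The median over all genes was 0.06. A set of 322 tested genes had no count in any palmitate library and was called higher with high butyrate, while 27 had none in any high butyrate library, of which 20 were called lower. These counts are no result, since such genes passed the filter through other groups and could be called in 1 direction only. For such genes no fold is given, and the fitted change behind their place in the counts of large rises and falls depends on the prior count of the fit.

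**Figure D2:**
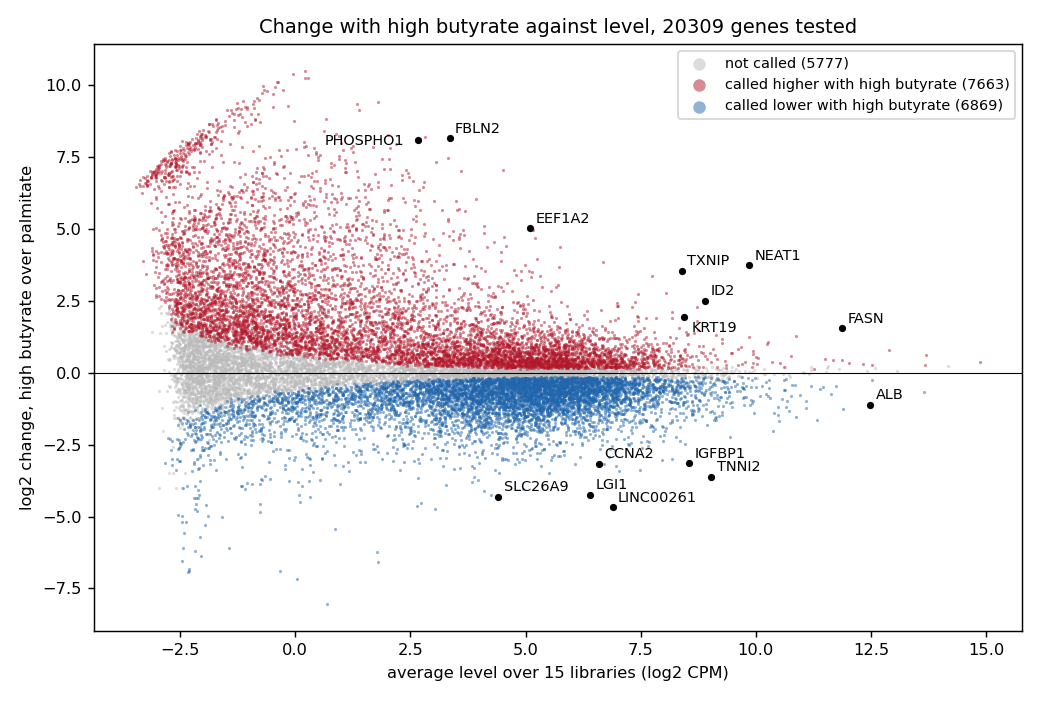
Log2 change of high butyrate over palmitate against average level in log2 CPM over 15 libraries, a point per gene. Rises, in red, spread widest at low levels, and most genes of average log2 CPM above 5 that were called lie below 0. The diagonal band at the upper left holds genes without a count in palmitate, whose height on the axis is no measured fold.

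Known targets of histone deacetylase inhibition mostly rose. Of 25 tested genes known from other studies to react to such inhibitors, 17 rose and 6 fell, with a median log2 change of 0.67 against 0.06 for all genes. The rises and falls are 68% and 24%, against 37.7% and 33.8% of all genes. Among genes averaging 5 to 8 log2 CPM, 27.7% rose and 55.6% fell. CDKN1A (ENSG00000124762, chromosome 6, 36676460 to 36687339, GRCh38), which encodes the cyclin-dependent kinase inhibitor p21, had 282, 298 and 296 CPM with high butyrate, against 55.9, 62.1 and 58.1 CPM with palmitate. Every high butyrate library was above every palmitate library, a 4.97-fold rise (log2 2.31, SE 0.0619, adjusted p = 9e-18).

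CDKN1A is shown with its promoter because Sp1-type GC boxes near its start are the textbook site of its response to deacetylase inhibitors. The sequence is the RefSeq window of 250 bases before to 50 after the start (GRCh38.p14, chr6:36678464-36678763, plus strand), 5′ to 3′, with GGGCGG in capitals.
CDKN1A: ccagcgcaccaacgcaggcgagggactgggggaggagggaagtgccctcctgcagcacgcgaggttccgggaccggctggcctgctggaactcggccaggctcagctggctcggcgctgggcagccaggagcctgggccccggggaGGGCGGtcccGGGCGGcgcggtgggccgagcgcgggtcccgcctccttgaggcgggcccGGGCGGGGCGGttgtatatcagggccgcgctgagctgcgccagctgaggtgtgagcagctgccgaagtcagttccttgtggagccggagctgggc
The search took both strands, and the 4 matches on the gene's strand begin 104, 94, 45 and 40 bases before the start, the last pair sharing a base. GGGCGG on either strand was found in 66.7% of the 12506 tested genes with such a window and in 44.6% of 27305 promoters of that length. Most tested genes with a window thus hold it, and its presence here is a description.

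TXNIP, which binds thioredoxin and restrains glucose uptake, stood next to NEAT1 among the largest rises of abundant genes. It had 1227, 1088 and 1178 CPM with high butyrate, against 102, 90.3 and 106 CPM with palmitate, with no overlap (11.7-fold, log2 3.55, SE 0.0935, adjusted p = 8.03e-18). ALPL, the tissue-nonspecific alkaline phosphatase and a long-used marker of butyrate action in cell lines, had 105, 102 and 102 CPM with high butyrate and 10.8, 15.4 and 13.3 CPM with palmitate. CDH1, which encodes the epithelial adhesion protein E-cadherin, had 129.6, 116 and 119 CPM with high butyrate and 25.4, 32.4 and 31.7 CPM with palmitate. Both rose without overlap, 7.87-fold and 4.07-fold. The 6 falls on the list included TYMS, which makes thymidylate, CCNB1, a mitotic cyclin, and CTPS1, which makes CTP. All 3 are genes of proliferation.

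Of 19 deacetylases and corepressor subunits, 5 rose and 6 fell, 26.3% and 31.6%, against 37.7% and 33.8% of all genes (median log2 0.06). Among genes averaging 5 to 8 log2 CPM, the shares were 27.7% and 55.6%. With library totals as the scaling 8 rose. HDAC5 had 139, 141 and 139 CPM with high butyrate and 56.3, 57.6 and 54.5 CPM with palmitate, a 2.49-fold rise, and HDAC3, the catalytic subunit of the NCoR complex, rose 1.84-fold. HDAC11, the class IV enzyme, rose 1.59-fold. HDAC7 fell to 6.19, 7.06 and 6.87 CPM with high butyrate, against 24.7, 26.2 and 26.1 CPM with palmitate, 3.82-fold. HDAC1, at 195 ± 4.63 CPM with high butyrate and 183 ± 5.05 CPM with palmitate, was not called (log2 0.08, adjusted p = 0.184). In 6 of 15 alternatives, other scalings and a stricter filter among them, it was called higher, with log2 changes from 0.13 to 0.22, and over all 15 its adjusted p in edgeR, DESeq2 or limma ran from 7.58e-05 to 0.743. Among 16 acetyltransferases and readers of acetyl marks 4 rose and 9 fell, 25% and 56.25%. Of all genes averaging 5 to 8 log2 CPM, 27.7% rose and 55.6% fell, so the list is near that background. KAT6B fell 2.38-fold and the bromodomain gene BRD3 1.94-fold, while the elongation kinase gene CDK9 rose 1.79-fold and its inhibitor HEXIM1 1.42-fold. Exons of BRD3 overlap BRD3OS on the other strand (18.6% of its exon bases), a gene that rose, and since the strand setting of the counting is not given in the sources used here, such a pair cannot be told apart where they overlap.

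The genes with the largest rises were almost silent in palmitate, and most are known from tissues other than liver. The 12 largest rises among genes averaging at least 2 log2 CPM ran from 116-fold to 295-fold. Genes so low in palmitate reach that average only through groups where they are higher, and folds of this size need a low baseline. Their near silence in palmitate is therefore largely set by the rule that chose them. FBLN2 (ENSG00000163520, chromosome 3, 13549131 to 13638422), which encodes the matrix protein fibulin-2, had 42.1, 38.0 and 39.4 CPM with high butyrate, against 0.0414, 0.0666 and 0.274 CPM with palmitate (log2 8.15, SE 0.216, adjusted p = 8.03e-18). PHOSPHO1, a phosphatase of bone mineralisation, had 26.5, 25.9 and 25.7 CPM with high butyrate, against 0.0414, 0.0888 and 0.137 CPM with palmitate. In both genes all palmitate libraries were below 0.3 CPM and all high butyrate libraries above 25 CPM.

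Others of these rises encode proteins of excitable or contractile cells. ATP1B2, a sodium pump subunit of glia and neurons, had 32.5, 27.4 and 23.9 CPM with high butyrate and 0, 0.133 and 0.137 CPM with palmitate. ADGRB2, an adhesion receptor of brain, reached 14.0 ± 0.661 CPM, CACNA1G, a T-type calcium channel, 21.3 ± 0.948 CPM, SEZ6L2, a neuronal surface protein, 45.8 ± 3.72 CPM, and TUBB4A, a brain tubulin, 14.8 ± 1.05 CPM with high butyrate. DES, the muscle filament desmin, and COL1A1, a fibrillar collagen, reached 14.1 ± 0.162 and 16.8 ± 1.17 CPM with high butyrate, against 0.0777 ± 0.0322 and 0.0595 ± 0.0703 CPM with palmitate. ENTPD8, an ecto-nucleotidase of liver and gut, was the most abundant of the 12 by count, at 89.3 ± 5.55 CPM with high butyrate against 0.653 ± 0.211 CPM with palmitate. RPLP0P2 is a pseudogene of a ribosomal protein gene and LINC02757 a long noncoding RNA. Reads of RPLP0P2 may be shared with its parent gene, so its value is uncertain. The groups did not overlap for any of the 12, a condition of the rule that chose them, and each was higher with high butyrate than with medium butyrate as well.

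**Figure D3:**
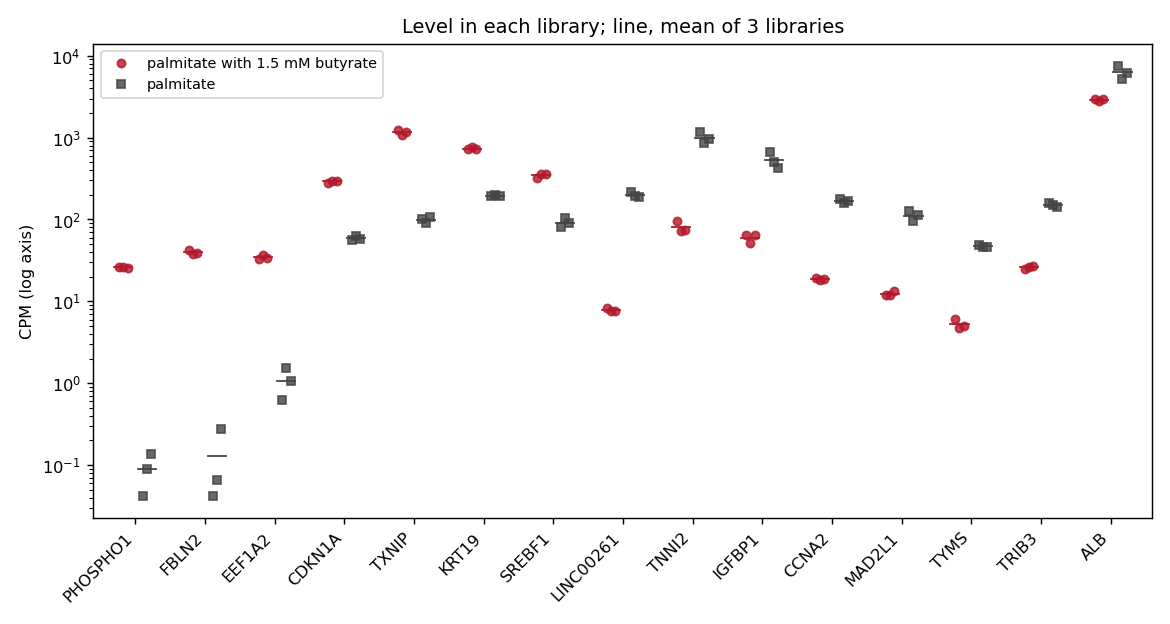
CPM on a log axis of 15 genes in each library of palmitate with 1.5 mM butyrate (red circles, left) and palmitate (grey squares, right), with lines at the means of 3 libraries. The groups do not overlap for any of the 15 genes.

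The largest falls included liver and secretory genes. LINC00261 (ENSG00000259974, chromosome 20, 22547671 to 22578642), a long noncoding RNA beside the liver transcription factor gene FOXA2, had 8.19, 7.52 and 7.72 CPM with high butyrate, against 217, 191 and 191 CPM with palmitate. That 25.5-fold fall, the largest of the 12 falls named by the same rule, left no overlap (log2 -4.67, SE 0.0829, adjusted p = 3.99e-20). FOXA2, a pioneer factor of endoderm, had 16.7, 14.8 and 15.4 CPM with high butyrate and 43.0, 42.2 and 41.7 CPM with palmitate, a 2.71-fold fall. LGI1, a secreted protein known from epilepsy genetics, had 7.66, 6.90 and 7.28 CPM with high butyrate, against 151, 125 and 136 CPM with palmitate. SLC26A9, a chloride channel of airway and stomach, had 1.60, 1.46 and 1.57 CPM with high butyrate, against 25.8, 33.0 and 33.1 CPM with palmitate. They fell 18.8-fold and 19.8-fold. AP1M2, an epithelial adaptor subunit for basolateral sorting, APOF, an apolipoprotein of the liver, EDN1, the vasoconstrictor endothelin-1, DGKK, a diacylglycerol kinase, and CAVIN2, a caveolar coat protein, fell between 11.3-fold and 16.5-fold. The noncoding RNAs LINC00513 and LINC01146 fell 19.1-fold and 17.2-fold. SERF1B was also called lower. Its reads may be shared with SERF1A, a near-identical copy, and 1 of its palmitate libraries held 28.3 CPM against 4.72 and 2.84 in the others. Without palmitate library 3 its call was lost (adjusted p = 0.119), so its value is uncertain.

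Among abundant genes, averaging at least 8 log2 CPM, NEAT1 rose most. This noncoding RNA, the scaffold of nuclear paraspeckles, had 2907, 3447 and 2986 CPM with high butyrate, against 226, 252 and 224 CPM with palmitate (13.3-fold, SE of the log2 change 0.105, adjusted p = 1.61e-17). LGALS1, encoding the sugar-binding galectin-1, rose 6.75-fold, ID2, an inhibitor of helix-loop-helix factors, 5.68-fold, SAT1, which acetylates polyamines, 4.88-fold, and NEU1, the lysosomal sialidase, 4.27-fold. KRT19, a keratin of bile duct cells, had 723, 759 and 724 CPM with high butyrate, against 192, 199.7 and 191 CPM with palmitate, and SLC23A2, a vitamin C transporter, rose 3.73-fold. Separation of the groups was a condition for naming them.

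Of the abundant falls, TNNI2, the fast-muscle troponin I that these liver cells express at a high level, was the largest. It had 95.0, 72.7 and 74.7 CPM with high butyrate, against 1167, 849 and 964 CPM with palmitate, a 12.3-fold difference. IGFBP1, a liver product that binds insulin-like growth factors and whose gene insulin represses, had 64.4, 51.5 and 63.8 CPM with high butyrate, against 658, 501 and 423 CPM with palmitate. It fell 8.81-fold (log2 -3.14, SE 0.216, adjusted p = 2.26e-11). TM4SF1, a tetraspanin-like surface protein, fell 7.91-fold, and ASGR1, a subunit of the hepatocyte asialoglycoprotein receptor, fell 4.49-fold to 81.1 ± 5.89 CPM, against 364 ± 18.4 CPM with palmitate. The chromatin proteins HMGA2 and HMGB1 fell 5.17-fold and 4.68-fold, HDGF 5.59-fold, and the translation factor EIF4G2 4.76-fold.

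Genes of cell division fell together, and almost without exception. Of 38 genes of DNA replication, 37 fell and 1 rose, and of 34 genes of mitosis and the spindle all 34 fell. Their median log2 changes were -1.64 and -1.76, against 0.06 over all genes and -0.27 over genes of average log2 CPM from 5 to 8, the range in which most of them lie. The replication gene that rose was TK1, thymidine kinase (log2 0.63), singled out after its value was seen.

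CCNA2, encoding the S-phase cyclin A2, had 19.0, 18.4 and 18.9 CPM with high butyrate, against 179, 157 and 169.8 CPM with palmitate (8.98-fold, log2 -3.17, SE 0.0639, adjusted p = 2.28e-19). TYMS, the thymidylate synthase that supplies dTMP, had 6.01, 4.78 and 5.06 CPM with high butyrate, against 48.8, 46.0 and 46.2 CPM with palmitate, 8.91-fold lower. Its exons share 46.6% of their bases with ENOSF1 on the other strand, which also fell (to 21.7 CPM, against 43.2 CPM with palmitate). CDC45, MCM6 and MCM7, parts of the helicase that unwinds DNA at the fork, fell 5.90-fold, 4.40-fold and 3.71-fold. MAD2L1, a spindle checkpoint protein, had 11.9, 11.8 and 13.5 CPM with high butyrate, against 126, 96.0 and 112 CPM with palmitate. The mitotic kinase gene AURKA fell 5.89-fold, the kinesin KIF20A 5.13-fold and CDCA8, of the chromosomal passenger complex, 3.81-fold. For none of these did the groups overlap.

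The promoters of both lists are shown by examples because E2F sites are a known feature of replication genes and the CHR element, TTTGAA, of mitotic genes. Motifs were searched on both strands of RefSeq windows (GRCh38.p14, 250 bases before to 50 after the start) and are in capitals, 5′ to 3′ on the gene's strand. MCM6 (chr2:135876394-135876693, minus strand) and MCM7 (chr7:100101348-100101647, minus strand) hold TTTCGCGC or TTTGGCGC, an E2F-type site. MAD2L1 (chr4:120066799-120067098, minus strand) and CDCA8 (chr1:37692266-37692565, plus strand) hold TTTGAA.
MCM6: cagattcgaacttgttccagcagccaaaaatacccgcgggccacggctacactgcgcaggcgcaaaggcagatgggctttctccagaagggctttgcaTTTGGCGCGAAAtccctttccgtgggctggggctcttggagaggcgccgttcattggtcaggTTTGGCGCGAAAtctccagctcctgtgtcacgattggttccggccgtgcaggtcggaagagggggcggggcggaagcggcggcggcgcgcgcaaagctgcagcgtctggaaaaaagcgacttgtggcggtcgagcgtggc
MCM7: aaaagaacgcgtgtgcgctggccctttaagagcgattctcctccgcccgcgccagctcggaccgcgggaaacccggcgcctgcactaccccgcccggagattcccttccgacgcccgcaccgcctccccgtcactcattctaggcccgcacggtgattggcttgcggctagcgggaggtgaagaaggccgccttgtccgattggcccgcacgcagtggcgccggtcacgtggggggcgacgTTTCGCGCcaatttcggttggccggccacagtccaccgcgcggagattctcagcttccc
MAD2L1: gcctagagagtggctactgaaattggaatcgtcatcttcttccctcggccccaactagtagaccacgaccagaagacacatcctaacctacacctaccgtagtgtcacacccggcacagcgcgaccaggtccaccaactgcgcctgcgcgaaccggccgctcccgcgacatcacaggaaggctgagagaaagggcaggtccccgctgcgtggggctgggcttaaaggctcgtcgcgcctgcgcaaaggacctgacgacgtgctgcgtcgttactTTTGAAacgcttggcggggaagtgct
CDCA8: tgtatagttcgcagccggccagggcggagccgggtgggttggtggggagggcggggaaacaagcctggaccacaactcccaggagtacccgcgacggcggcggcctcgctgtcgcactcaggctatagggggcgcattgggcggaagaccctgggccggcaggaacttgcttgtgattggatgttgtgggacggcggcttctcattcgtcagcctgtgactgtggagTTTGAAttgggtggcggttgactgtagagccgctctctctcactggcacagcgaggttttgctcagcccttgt
In MCM6 each capital block holds a match on either strand, overlapping by 4 bases, and the block nearer the start begins 90 bases before it. In MCM7 the site begins 9 bases before the start, in CDCA8 23 bases before it and in MAD2L1 at base 25 of the transcript. The E2F-type site was found in 10 of the 34 replication genes with a window (29.4%), against 1.90% of the 12506 tested genes with a window and 1.18% of 27305 promoters. TTTGAA was found in 20 of 28 mitotic genes (71.4%), against 9.92% of tested genes and 15.4% of all promoters, and CCAAT in 75%, against 36.4% and 35.7%. These shares describe the lists, which were compiled for their roles and not from promoters, and no match marks a bound site.

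Cyclins and their regulators mostly fell. Of 22 tested, 15 fell and 4 rose (median log2 -1.04), 68.2% and 18.2%, against 45.3% and 34.3% of genes averaging 2 to 5 log2 CPM. The G1 cyclin genes CCND2 and CCND3 rose 8.73-fold and 2.38-fold, to 16.5 ± 1.56 and 28.4 ± 2.06 CPM with high butyrate, against 1.89 ± 0.173 and 11.9 ± 1.32 CPM with palmitate. CCND1, the most abundant D cyclin here, fell 1.21-fold to 198, 198 and 200.1 CPM, against 215, 261 and 246 CPM with palmitate, and lost its call with library totals as the scaling (adjusted p = 0.0912) and on FPKM (0.117 and 0.116). It shares 10.3% of its exon bases with LTO1 on the other strand, which rose. The E2F family genes E2F1, E2F7 and E2F8 fell 4.07-fold, 7.58-fold and 7.06-fold. CDKN2B, encoding the CDK4 inhibitor p15, rose 1.59-fold from a low level. Targets of p53 did not rise as a group: 5 of 18 rose and 11 fell, 27.8% and 61.1%. These shares are near the 27.7% and 55.6% of genes averaging 5 to 8 log2 CPM. CDKN1A, TP53INP1 and SESN2 were among the rises (TP53INP1 2.89-fold and SESN2 2.00-fold), and MDM2, the ligase that degrades p53, fell 2.24-fold.

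Among 29 apoptosis regulators 8 rose and 14 fell, 27.6% and 48.3%, near the 34.3% and 45.3% of genes averaging 2 to 5 log2 CPM. The rises included BH3-only genes, whose proteins start the mitochondrial pathway. BIK had 23.2, 30.1 and 30.1 CPM with high butyrate, against 1.64, 1.80 and 1.53 CPM with palmitate, 16.9-fold higher, BMF rose 3.79-fold and BBC3, encoding PUMA, 2.39-fold. BID, which links death receptors to mitochondria, went the other way, with 4.68, 5.18 and 4.35 CPM with high butyrate, against 41.8, 36.0 and 37.1 CPM with palmitate (8.07-fold lower). The death receptor gene FAS fell 10.1-fold and CFLAR, an inhibitor of caspase-8 activation, 4.59-fold.

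**Figure D4:**
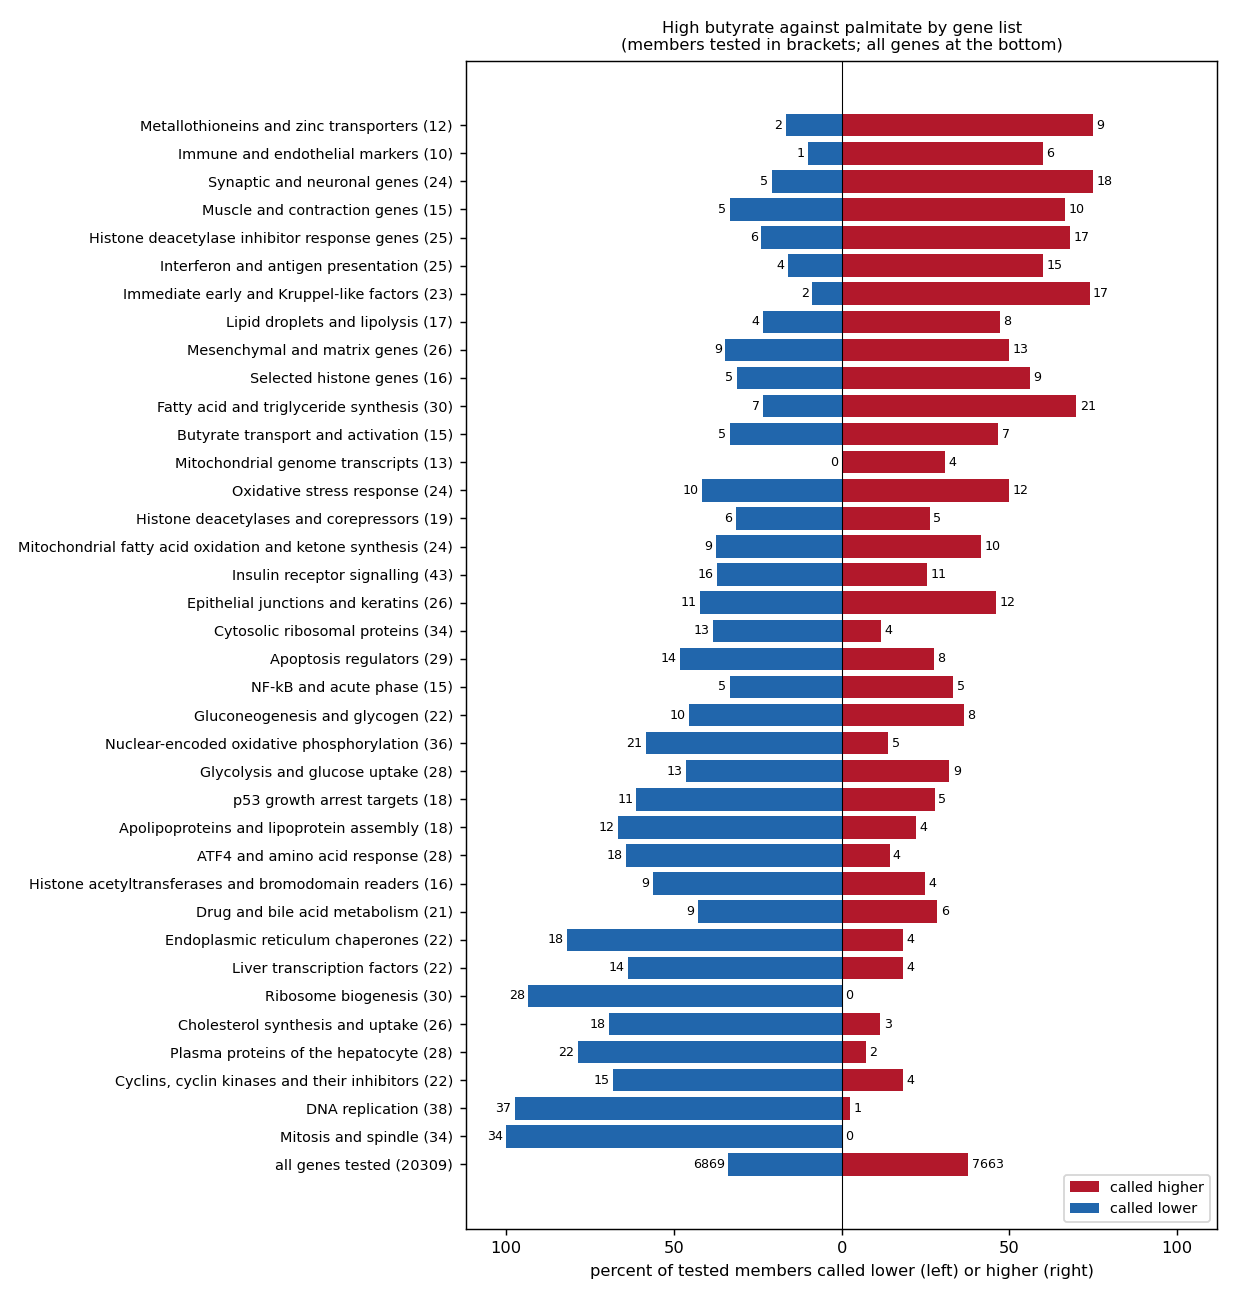
Percent of tested members of each gene list called higher (red, right) or lower (blue, left) with high butyrate against palmitate, with counts at the bar ends and lists sorted by median change. The row of all 20309 genes at the bottom gives the background of 37.7% and 33.8%, and the mitosis, DNA replication and ribosome biogenesis lists extend farthest to the left.

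Genes that build ribosomes fell as well. Of 30 tested, 28 fell (93.3%) and none rose (median log2 -0.81). Among all genes averaging 5 to 8 log2 CPM, 55.6% fell and 27.7% rose. UTP20, of the small-subunit processome, had 27.4 ± 2.06 CPM with high butyrate, against 119.6 ± 9.51 CPM with palmitate, a 4.37-fold fall. UBTF, a factor of RNA polymerase I, fell 4.49-fold, WDR12, of large-subunit maturation, 2.70-fold, and DKC1, the pseudouridine synthase dyskerin, 2.68-fold. UTP20 stands here for the list because CACGTG, the E-box bound by MYC-type factors, occurs in its promoter window (GRCh38.p14, chr12:101279855-101280154, plus strand), shown with the match in capitals, 10 bases before the start.
UTP20: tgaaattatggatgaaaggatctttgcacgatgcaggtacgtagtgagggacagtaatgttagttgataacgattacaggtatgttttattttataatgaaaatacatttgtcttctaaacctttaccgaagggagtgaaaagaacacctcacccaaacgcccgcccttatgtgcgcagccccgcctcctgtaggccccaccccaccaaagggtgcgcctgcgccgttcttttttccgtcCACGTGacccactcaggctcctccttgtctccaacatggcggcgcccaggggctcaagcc
CACGTG, which reads alike on both strands, was found in 10 of 25 list promoters (40%), against 9.75% of tested genes and 7.44% of all promoters.
The ribosomal proteins themselves moved little. Of 34 genes of the cytosolic ribosome 4 rose and 13 fell, none of them 2-fold, with a median log2 change of -0.13. The rises and falls are 11.8% and 38.2%, against 21.3% and 54.2% of genes averaging above 8 log2 CPM. RPLP0 fell 1.38-fold and RPL4 1.36-fold. RPL18 rose 1.34-fold. RPS18, RPL27 and RPS28 were called higher too. RPS18 had 1248, 1648 and 1760.4 CPM with high butyrate, against 1259.5, 1279.5 and 1129.6 CPM with palmitate, so the groups overlapped, and the calls of all 3 were lost without high butyrate library 3 (adjusted p = 0.0532, 0.0675 and 0.141), that of RPS28 also under 4 other alternatives. Exons of RPS28 share 21.4% of their bases with KANK3 on the other strand, which rose. With library totals as the scaling or on FPKM, 7 ribosomal protein genes were higher and 7 or 8 lower. Ribosomal protein genes have many processed pseudogenes that may share their reads.

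The insulin pathway runs from the receptor through IRS adaptors and PI3 kinase to AKT, which favours glucose storage and restrains glucose output. Of 43 of its genes 11 rose and 16 fell (median log2 -0.04, against 0.06 over all genes). These are 25.6% and 37.2%, against 37.7% and 33.8% of all genes. Among those averaging 5 to 8 log2 CPM, 27.7% rose and 55.6% fell. With library totals or on FPKM 18 were called higher, so the balance of the list depends on the scaling. INSR, the receptor, averaged 45.2 ± 3.50 CPM with high butyrate and 57.4 ± 8.72 CPM with palmitate (SD, n = 3 each), a 1.27-fold fall (adjusted p = 0.00205) whose call was lost with library totals (0.0661) and on FPKM (0.133 and 0.126 for pseudocounts of 1 and 0.1). IRS1, the adaptor below it, had 92.4, 84.1 and 88.4 CPM with high butyrate, against 105, 140.4 and 134 CPM with palmitate (1.43-fold lower, adjusted p = 5.96e-06). IRS2 was low in both groups and not called (log2 -0.04, adjusted p = 0.837).

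Below the receptor the larger changes were in kinases and in inhibitors. AKT1 had 65.6, 63.6 and 66.3 CPM with high butyrate, against 128, 161 and 153 CPM with palmitate, a 2.26-fold fall. TRIB3, a pseudokinase that binds AKT and is induced by stress, had 25.1, 26.6 and 27.0 CPM with high butyrate, against 158, 151 and 142 CPM with palmitate. That was a 5.74-fold fall (log2 -2.52, SE 0.0697, adjusted p = 1.31e-17). INPPL1, the lipid phosphatase SHIP2, fell 2.73-fold, whereas PTPN1, the phosphatase that removes phosphate from the receptor, rose 1.82-fold. PIK3R3, a regulatory subunit of PI3 kinase, and GRB2, an adaptor to RAS, rose 2.54-fold and 1.75-fold. The catalytic subunit gene PIK3CA fell 1.60-fold, with 35.8% of its exon bases shared with KCNMB3 on the other strand.

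Gluconeogenic genes that insulin represses in liver rose from low levels. PCK1, the cytosolic carboxykinase of gluconeogenesis, had 3.32, 3.19 and 3.71 CPM with high butyrate, against 0.373, 0.577 and 0.411 CPM with palmitate (7.52-fold, adjusted p = 1.83e-09), and G6PC1, the phosphatase that releases glucose, had 0.712, 0.917 and 0.867 CPM with high butyrate, against 0.145, 0.0888 and 0.171 CPM with palmitate (5.97-fold, adjusted p = 6.78e-06). PCK2, the mitochondrial enzyme and far more abundant here, fell 1.44-fold to 110.1 ± 1.56 CPM, against 159 ± 9.22 CPM with palmitate. CREB3L3, a liver transcription factor activated by fasting, had 97.0, 78.2 and 70.2 CPM with high butyrate, against 6.98, 6.17 and 7.82 CPM with palmitate. In the list of 22 genes of gluconeogenesis and glycogen 8 rose and 10 fell, 36.4% and 45.5%. Of all genes averaging 5 to 8 log2 CPM, 27.7% rose and 55.6% fell. The glycogen genes PGM1, PHKA2 and GBE1 fell 5.23-fold, 2.15-fold and 2.06-fold, and PPP1R3C, which targets a phosphatase to glycogen, rose 3.20-fold.

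The hexokinase genes HK2 and HK1 moved in opposite directions. HK2, the hexokinase of tumour cells, had 222, 172 and 200.3 CPM with high butyrate, against 697, 739 and 674 CPM with palmitate, a 3.55-fold fall. HK1 had 93.7, 71.7 and 74.6 CPM with high butyrate, against 8.29, 6.30 and 6.27 CPM with palmitate, 11.5-fold higher. Per length the mean levels with high butyrate were 35.1 FPKM for HK2 and 13.3 FPKM for HK1, against 114 and 1.05 FPKM with palmitate, so HK2 was the more abundant in both groups. LDHA, lactate dehydrogenase A, fell 1.97-fold to 1461 ± 106 CPM, against 2872 ± 356 CPM with palmitate. PKLR, the liver pyruvate kinase, fell 2.91-fold, with 17.6% of its exon bases shared with HCN3 on the other strand. In all, 9 of 28 genes of glycolysis and glucose uptake rose and 13 fell, 32.1% and 46.4%. The shares over genes averaging 5 to 8 log2 CPM were 27.7% and 55.6%. ALDOA is left aside, since 42.3% of its exon bases lie in a second gene entry on the same strand, so that its counts may be split.

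Genes that make fatty acids and triglycerides rose, and genes that make cholesterol fell. Of 30 genes of fatty acid and triglyceride synthesis 21 rose and 7 fell (median log2 0.29). These are 70% and 23.3%, against 27.7% and 55.6% of genes averaging 5 to 8 log2 CPM. FASN, the fatty acid synthase, had 5153, 5014 and 5342 CPM with high butyrate, against 1260.0, 2206 and 1814 CPM with palmitate, a 2.94-fold rise (log2 1.55, SE 0.125, adjusted p = 3.12e-10). SREBF1, the transcription factor that drives it, had 319, 362 and 356 CPM with high butyrate, against 79.9, 103 and 89.6 CPM with palmitate, 3.81-fold higher. ACSL1, which activates long-chain fatty acids, rose 5.28-fold, GPAM, the first acyltransferase of glycerolipid synthesis, 2.51-fold, and DGAT2, the last step to triglyceride, 1.89-fold. The desaturases FADS1 and FADS2 and the elongase ELOVL6, which extends palmitate, were exceptions and fell 1.35-fold, 2.21-fold and 2.48-fold. MOGAT2, of the monoacylglycerol route, fell 3.71-fold.

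Of 26 cholesterol genes 18 fell and 3 rose (median log2 -0.82), 69.2% and 11.5%. Over genes averaging 5 to 8 log2 CPM, 55.6% fell and 27.7% rose. HMGCS1, the cytosolic synthase at the head of the pathway, had 172, 149 and 179 CPM with high butyrate, against 471, 431 and 437 CPM with palmitate, 2.68-fold lower. FDPS, HSD17B7 and NSDHL, further along it, fell 2.42-fold, 2.57-fold and 2.17-fold, FDPS with 18.6% of its exon bases shared with RUSC1-AS1 on the other strand. With library totals 6 were called higher. The 3 rises were SCAP, the escort of SREBP proteins (1.76-fold), NPC1L1, the cholesterol importer (1.62-fold), and PMVK (1.60-fold).

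Lipid droplet genes changed unevenly. PLIN5, a droplet coat that tethers mitochondria, had 21.5, 23.6 and 25.9 CPM with high butyrate, against 0.373, 0.266 and 0.6 CPM with palmitate (55.4-fold), with 21.7% of its exon bases in another entry on the same strand that rose too. PLIN4 had 18.7, 22.1 and 21.9 CPM with high butyrate, against 2.07, 2.80 and 2.76 CPM with palmitate (8.21-fold). PLIN2, the most abundant coat gene, had 1008, 1002 and 999 CPM with high butyrate, against 1082, 951 and 932 CPM with palmitate, and was not called (log2 0.02, SE 0.113, adjusted p = 0.873). FITM2, which helps droplets form, rose 2.66-fold, PNPLA2, the main triglyceride lipase, 1.93-fold, while PNPLA3 fell 2.50-fold. Of the 17 tested, 8 rose and 4 fell, 47.1% and 23.5%, against 34.3% and 45.3% of genes averaging 2 to 5 log2 CPM. Among those 4, MGLL belongs to the genes set apart by palmitate library 1, and its log2 change was -2.13 with all libraries and 0.48 without it (adjusted p = 0.507). The fall of CIDEC (adjusted p = 0.0413) was lost in 12 of 15 alternatives tried. Without palmitate library 1, 9 genes of the list rose and 2 fell.

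For mitochondrial fatty acid oxidation and ketone synthesis 10 of 24 genes rose and 9 fell (median log2 0.02). These are 41.7% and 37.5%, against 37.7% and 33.8% of all genes. Among those averaging 5 to 8 log2 CPM, the class of the list's median level, 27.7% rose and 55.6% fell. CPT1A, which admits fatty acids to mitochondria, had 86.8, 87.3 and 89.4 CPM with high butyrate, against 82.2, 95.7 and 85.7 CPM with palmitate, and was not called (log2 0.00, SE 0.0671). PDK4, which spares glucose by blocking pyruvate dehydrogenase, had 1.69, 2.35 and 2.10 CPM with high butyrate, against 0.124, 0.0888 and 0.0686 CPM with palmitate, 21.5-fold higher. ACADM, HADH and BDH1, of medium-chain oxidation, the hydroxyacyl step and ketone body production, fell 2.19-fold, 2.27-fold and 2.40-fold. ANGPTL4, a secreted inhibitor of lipoprotein lipase, rose 3.04-fold to 9.10 ± 0.459 CPM, against 3.00 ± 0.377 CPM with palmitate.

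Transport and activation of butyrate itself involved 15 tested genes, 7 higher and 5 lower, 46.7% and 33.3%, against 37.7% and 33.8% of all genes. Among genes averaging 5 to 8 log2 CPM, 27.7% rose and 55.6% fell. ACSM1 and ACSM3, mitochondrial synthetases for medium- and short-chain acids, rose 6.22-fold and 2.33-fold, to 11.8 ± 1.34 and 89.5 ± 4.46 CPM with high butyrate, against 1.89 ± 0.342 and 38.4 ± 1.70 CPM with palmitate. ACADS, the short-chain dehydrogenase that oxidises butyryl-CoA, rose 1.62-fold and BSG, the chaperone of monocarboxylate transporters, 1.85-fold. ABCG2, an exporter of the ABC family, and HCAR2, a receptor for butyrate and niacin, fell 2.07-fold and 2.47-fold.

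Products of the mature hepatocyte fell in most cases. Of 28 plasma protein genes 22 fell and 2 rose (median log2 -0.84, against -0.27 for genes of average log2 CPM from 5 to 8 and -0.26 above 8). ALB, encoding albumin, had 2961, 2826 and 2957 CPM with high butyrate, against 7585, 5230.3 and 6110.3 CPM with palmitate, a 2.16-fold fall (log2 -1.11, SE 0.0958, adjusted p = 9.48e-10). AFP, its fetal relative, had 2152, 1945 and 1951 CPM with high butyrate, against 5804, 3971 and 4661 CPM with palmitate. ITIH2 and ITIH3, which bind hyaluronan, RBP4, the retinol carrier, and ORM1, an acute-phase glycoprotein, fell 3.17-fold, 3.38-fold, 2.86-fold and 3.12-fold. ORM1 has a close relative, ORM2, and reads may be shared between them. In bulk RNA, fewer cells making a product and less RNA per cell cannot be told apart.

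Apolipoproteins divided. APOA1, of high-density lipoprotein, had 1496, 1783 and 1759.5 CPM with high butyrate, against 953, 825 and 736 CPM with palmitate, 2.00-fold higher, and APOB, of the very-low-density particle, had 9362, 7892 and 9414 CPM with high butyrate, against 4151, 5723 and 5403 CPM with palmitate, 1.75-fold higher. APOA4 rose 8.35-fold and PLTP, the phospholipid transfer protein, 5.48-fold. APOA2, APOA5 and APOH fell 2.62-fold, 2.32-fold and 2.60-fold. In all, 12 of 18 fell and 4 rose, 66.7% and 22.2%, against 55.6% and 27.7% of genes averaging 5 to 8 log2 CPM. The 4 rises of the list are all named here.

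Most transcription factors that set liver identity fell too, 14 of 22 (63.6%), with 4 rises (median log2 -0.58). Over all genes averaging 5 to 8 log2 CPM 55.6% fell, with a median of -0.27. NR0B2, the repressor SHP of bile acid synthesis, averaged 21.2 ± 0.389 CPM with high butyrate, against 137 ± 11.1 CPM with palmitate, 6.46-fold lower. NR1H4, the bile acid receptor FXR that induces it, fell 4.02-fold to 18.1 ± 0.812 CPM, against 72.7 ± 7.50 CPM with palmitate. FOXA1 fell 3.39-fold. CEBPA, GATA4 and CEBPB rose 1.61-fold, 1.59-fold and 1.33-fold, as did NR1I3, the receptor CAR, from a low level.

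In drug and bile acid metabolism 6 of 21 genes rose and 9 fell, 28.6% and 42.9%. The shares over genes averaging 2 to 5 log2 CPM were 34.3% and 45.3%. CYP1A1, the main target of the aryl hydrocarbon receptor, had 23.6, 28.1 and 23.6 CPM with high butyrate, against 0.539, 1.38 and 1.51 CPM with palmitate, 21.8-fold higher. CYP3A5 rose 3.29-fold and CYP2E1 7.49-fold. ABCB1, the P-glycoprotein efflux pump, rose 1.69-fold. The conjugate exporters ABCC2 and ABCC3 fell 3.13-fold and 2.87-fold, ABCC2 to 175, 156 and 177 CPM with high butyrate, against 506, 534 and 548 CPM with palmitate. CYP27A1, which oxidises cholesterol side chains, fell 1.97-fold.

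Most genes of endoplasmic reticulum stress fell. Of 22 chaperone and sensor genes 18 fell (81.8%) and 4 rose (median log2 -0.43). Over all genes averaging 5 to 8 log2 CPM 55.6% fell, with a median of -0.27. HSPA5, the chaperone BiP, had 1003, 919 and 911 CPM with high butyrate, against 2062, 1649 and 1834 CPM with palmitate, 1.96-fold lower, and MANF, a secreted stress factor, fell 3.01-fold. ERN1, the sensor IRE1, rose 2.60-fold and SYVN1, a ligase of protein degradation, 1.65-fold. In the ATF4 and amino acid response, 18 of 28 genes fell (64.3%, against the same 55.6%) and 4 rose (median log2 -0.42). ATF4 itself, the factor of this response, had 323, 340.1 and 348 CPM with high butyrate, against 658, 621 and 601 CPM with palmitate, 1.86-fold lower. SLC7A11, the cystine importer, fell 4.30-fold, SLC7A1, an arginine importer, 2.21-fold, and ATF5 3.17-fold, with 21.2% of its exon bases shared with NUP62 on the other strand. ALDH1L2, of mitochondrial folate metabolism, rose 3.70-fold and DDIT4, an inhibitor of mTOR signalling, 1.72-fold. DDIT3, encoding CHOP and sharing 31.6% of its exon bases with MARS1, stood at 2.78, 2.91 and 2.74 CPM with high butyrate, against 5.01, 3.04 and 3.93 CPM with palmitate, and its call (adjusted p = 0.0433) was lost in 12 of 15 alternatives tried.

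Metal and redox genes moved upward in part. Of 12 tested metallothioneins and zinc transporters 9 rose and 2 fell, and the median log2 change of 2.01 was the highest of the lists examined. The rises and falls are 75% and 16.7%, against 37.7% and 33.8% of all genes. Among genes averaging 5 to 8 log2 CPM, 27.7% rose and 55.6% fell. MT2A had 331, 432 and 388 CPM with high butyrate, against 87.5, 71.2 and 77.0 CPM with palmitate, MT1G had 120.4, 152 and 146 CPM against 30.2, 24.4 and 28.6 CPM, and MT1X averaged 13.4 ± 1.26 CPM against 1.20 ± 0.212 CPM, in the same order of groups. They rose 4.89-fold, 5.03-fold and 11.2-fold. Metallothionein genes are near copies of each other, so the split of reads between them is uncertain. Of 24 genes of the oxidative stress response 12 rose and 10 fell, 50% and 41.7%, against 37.7% and 33.8% of all genes. Among genes averaging above 8 log2 CPM, 21.3% rose and 54.2% fell. HMOX1, haem oxygenase, rose 1.63-fold. NQO1, a quinone reductase, GSR, glutathione reductase, and KEAP1, the sensor that restrains NRF2, fell 2.10-fold, 1.89-fold and 2.34-fold.

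Genes of oxidative phosphorylation lie in the nuclear and the mitochondrial genome. Of 36 nuclear ones 21 fell, 58.3%, and 5 rose (median log2 -0.23), close to the 55.6% of falls and the median of -0.27 over all genes of average log2 CPM from 5 to 8. Among them were CYC1, cytochrome c1, 2.35-fold lower and UQCRFS1, the Rieske protein, 2.03-fold lower. With library totals or on FPKM 13 fell. Of 13 genes of the mitochondrial genome none fell and 4 rose (30.8%), with a median of 0.19. Among all genes averaging above 8 log2 CPM, 54.2% fell and 21.3% rose. MT-CYB, cytochrome b, had 4202, 3759 and 3512 CPM with high butyrate, against 3038, 2399 and 2734 CPM with palmitate, 1.40-fold higher. MT-ND6 rose 1.31-fold. The count of rises was 8 with library totals, 9 without palmitate library 1, and 2 without high butyrate library 1 or palmitate library 2. The calls of MT-CO3 and MT-ND5 were lost without high butyrate library 1 (adjusted p = 0.290 and 0.0583) or without palmitate library 2 (0.148 and 0.0510), and that of MT-CO3 under 4 other alternatives.

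Genes of other cell types were measured against their own lists. Of 24 tested synaptic and neuronal genes 18 rose and 5 fell (median log2 1.45), where genes of average log2 CPM from 0 to 2 had a median of 0.42 and those from 2 to 5 of -0.13. EEF1A2, an elongation factor of neurons and muscle, had 33.3, 36.9 and 33.9 CPM with high butyrate, against 0.622, 1.53 and 1.06 CPM with palmitate, 32.5-fold higher. SYP, the synaptic vesicle protein synaptophysin, had 41.3, 40.8 and 39.4 CPM with high butyrate, against 2.34, 2.11 and 2.06 CPM with palmitate (18.7-fold). SYT11, a vesicle sensor relative, rose 67.9-fold and MAPT, the microtubule protein tau, 5.81-fold. CPLX2, a regulator of vesicle fusion that HepG2 cells expressed at 281 ± 33.5 CPM with palmitate, fell 3.74-fold, to 75.1 ± 6.97 CPM with high butyrate.

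Muscle genes likewise split, with 15 of 23 names tested, 10 higher and 5 lower. These are 66.7% and 33.3%, against 34.3% and 45.3% of genes averaging 2 to 5 log2 CPM. In this list and the neuronal list, genes near silence in palmitate were tested only through groups where they are higher. The balance of both lists is therefore in part set by the filter. CKM, muscle creatine kinase, rose 16.9-fold and TNNT1, slow troponin T, 6.49-fold, to 12.1 ± 0.422 and 17.2 ± 0.909 CPM with high butyrate, against 0.719 ± 0.107 and 2.64 ± 0.535 CPM with palmitate, whereas TNNI2 and the tropomyosin genes TPM1 and TPM2 fell. Matrix and mesenchymal genes rose in 13 of 26 and fell in 9. The collagen VI genes COL6A1 and COL6A2 rose 8.15-fold and 30.3-fold and TIMP2, a protease inhibitor, 4.56-fold. LOX, which crosslinks collagen, and ZEB1, a repressor of E-cadherin, fell 2.48-fold and 1.86-fold. VIM and COL4A1 on this list, and KRT7 on the epithelial list below, are among the 52 genes of palmitate library 1, without which 14 matrix genes rose and 8 fell. Epithelial genes were also divided, 12 higher and 11 lower of 26, 46.2% and 42.3%. Among all genes averaging 5 to 8 log2 CPM, 27.7% rose and 55.6% fell. CGN, the junction protein cingulin, had 75.9, 70.1 and 70.4 CPM with high butyrate, against 7.69, 7.43 and 7.78 CPM with palmitate. CLDN1 and EPCAM fell 3.54-fold and 2.37-fold. Without palmitate library 1, 12 epithelial genes rose and 10 fell.

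The summed levels of short marker lists for other cell types were as follows. Of 6 fibroblast or stromal markers 3 were tested and rose, with sums of 2.81 to 3.17 FPKM in high butyrate against 0.222 to 0.239 in palmitate libraries. Of 4 endothelial markers 3 were tested and 2 rose, with 1.44 to 1.93 FPKM against 0.515 to 0.709, of 5 neuronal markers 2 rose and 1 fell, with 1.25 to 1.31 FPKM against 0.308 to 0.492, and of 4 skeletal muscle markers 2 rose and 1 fell, with 8.29 to 9.21 FPKM against 0.440 to 0.752, in the same order of groups. Of 5 blood and immune markers 2 were tested, of which 1 rose and 1 fell. They summed to 567 to 638 FPKM against 1141 to 1424, nearly all of it LYZ, lysozyme, which had 943, 991 and 1016 CPM with high butyrate, against 2643, 2183 and 2057 CPM with palmitate. Of 5 cholangiocyte markers 4 were tested, of which 1 rose and 2 fell, with sums of 394 to 424 FPKM against 195 to 221. The 1 that rose was KRT19. The 2 that fell were EPCAM and KRT7, and KRT7 is among the genes set apart by palmitate library 1. The stromal, endothelial, neuronal and muscle sums were far below the hepatocyte sum in both groups. No marker was at 0 in all 6 libraries, and their part in the rises above was not tested.

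Interferon and antigen presentation genes rose in 15 of 25 and fell in 4 (median log2 0.61). These are 60% and 16%, against 34.3% and 45.3% of genes averaging 2 to 5 log2 CPM. IFI6, an interferon-induced mitochondrial protein, had 36.1, 49.9 and 50.3 CPM with high butyrate, against 2.40, 2.35 and 1.89 CPM with palmitate, 20.6-fold higher, and IFIT1, which binds foreign RNA, rose 6.98-fold. HLA-E and HLA-B, of class I antigen presentation, rose 3.08-fold and 3.72-fold, though HLA genes resemble each other and may share reads. The peptide transporter genes TAP1 and TAP2 and the immunoproteasome gene PSMB8 fell 1.99-fold, 2.20-fold and 3.53-fold. In the NF-kB and acute phase list 5 of 15 rose and 5 fell, 33.3% each, against 37.7% and 33.8% of all genes. Among those averaging 5 to 8 log2 CPM, 27.7% rose and 55.6% fell. STAT3, the transducer of interleukin-6, rose 2.34-fold, while NFKB1 and MYD88, the adaptor of Toll-like receptors, fell 4.21-fold and 7.34-fold, MYD88 to 8.10, 7.56 and 8.12 CPM with high butyrate, against 53.6, 59.8 and 61.1 CPM with palmitate.

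Immediate early genes and Kruppel-like factors rose in 17 of 23 and fell in 2 (median log2 0.61). These are 73.9% and 8.70%, against 34.3% and 45.3% of genes averaging 2 to 5 log2 CPM. EGR1, a rapidly induced zinc finger factor, had 107, 106 and 82.6 CPM with high butyrate, against 10.2, 10.1 and 7.85 CPM with palmitate (10.5-fold, adjusted p = 9.33e-16). FOS, a component of AP-1, had 37.1, 38.9 and 33.6 CPM with high butyrate, against 3.05, 3.35 and 1.73 CPM with palmitate, 13.6-fold higher, and DUSP1, a phosphatase of MAP kinases, rose 3.64-fold. FOSL1, another AP-1 subunit, fell 5.97-fold. Of 16 histone genes, a mixed list of variants, linker histones and members of the replication-dependent clusters, 9 rose and 5 fell. These are 56.25% and 31.25%, against 37.7% and 33.8% of all genes and 34.3% and 45.3% of those averaging 2 to 5 log2 CPM. H2BC12 and H2BC21, both of the clusters, rose 7.50-fold and 9.67-fold, and H2AZ1, a variant of active promoters, fell 4.06-fold to 26.6, 27.0 and 31.0 CPM, against 128, 102 and 114 CPM with palmitate. Histone genes of the clusters have near-identical copies, and most of their transcripts lack a poly(A) tail, so poly(A) libraries hold only part of them.

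High butyrate also differed widely from medium butyrate, the group nearest in dose, with 5472 genes higher (26.9%) and 5819 lower (28.7%), together 55.6%, of those tested. Both groups share their times with palmitate and butyrate by the library names, so 1.5 mM and 1 mM are compared without that difference. The palmitate libraries do not enter this comparison except through the shared estimate of spread. The cell division lists differed again: 37 of 38 replication genes and all 34 mitosis genes were lower at 1.5 mM than at 1 mM, with median log2 changes of -1.22 and -1.24 against 0.01 over all genes. Of 28 plasma protein genes 18 were lower and 3 higher (median -0.53), of 30 ribosome biogenesis genes 25 were lower and none higher, and of 34 ribosomal protein genes 22 were lower and none higher.

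Single genes followed several courses with dose. CCNA2 had 75.3 ± 1.49, 70.9 ± 1.11 and 18.8 ± 0.301 CPM with low, medium and high butyrate. TXNIP averaged 147 ± 13.6 CPM at low butyrate, had 173, 157 and 180.5 CPM in the medium libraries and averaged 1164 ± 70.4 CPM at high butyrate. NEAT1 averaged 498 ± 39.0, 522 ± 72.0 and 3114 ± 292 CPM at low, medium and high butyrate, so that both were far higher at high than at medium (6.85-fold and 5.96-fold). ALB stood at 6907 ± 317, 6958 ± 153 and 2915 ± 76.5 CPM, 2.39-fold lower at high than at medium (log2 -1.26, SE 0.0961, adjusted p = 4.35e-10). IGFBP1 was 6.44-fold lower at high than at medium.

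FASN was not called between these doses, with 4852 ± 205, 5073 ± 125 and 5169.7 ± 165 CPM at low, medium and high butyrate (log2 change of high over medium 0.03, SE 0.122, adjusted p = 0.867). CDH1 was 1.18-fold higher at high than at medium. EEF1A2 turned back: it had 33.3, 36.9 and 33.9 CPM with high butyrate, against 69.5, 68.4 and 67.4 CPM with medium butyrate and 0.622, 1.53 and 1.06 CPM with palmitate, 1.97-fold lower at high than at medium (adjusted p = 3.59e-08). The largest rises of high over medium were CRISPLD2, a secreted protein (18.3, 16.6 and 17.8 CPM against 1.19 ± 0.366), SYT11, LINC02204, the pseudogene DPY19L2P2, TCN2, a carrier of vitamin B12, and PHOSPHO1, between 8.98-fold and 14.7-fold. The largest falls were VIM, MSN and EMP1, of the genes set apart by palmitate library 1, with 0.104 ± 0.0205 CPM of VIM in high butyrate against 10.9 ± 1.73 in medium, and LINC00513, SLC26A9 and LINC00261. Of the 52 genes of that kind, 40 were lower and 1 higher at high than at medium.

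**Figure D5:**
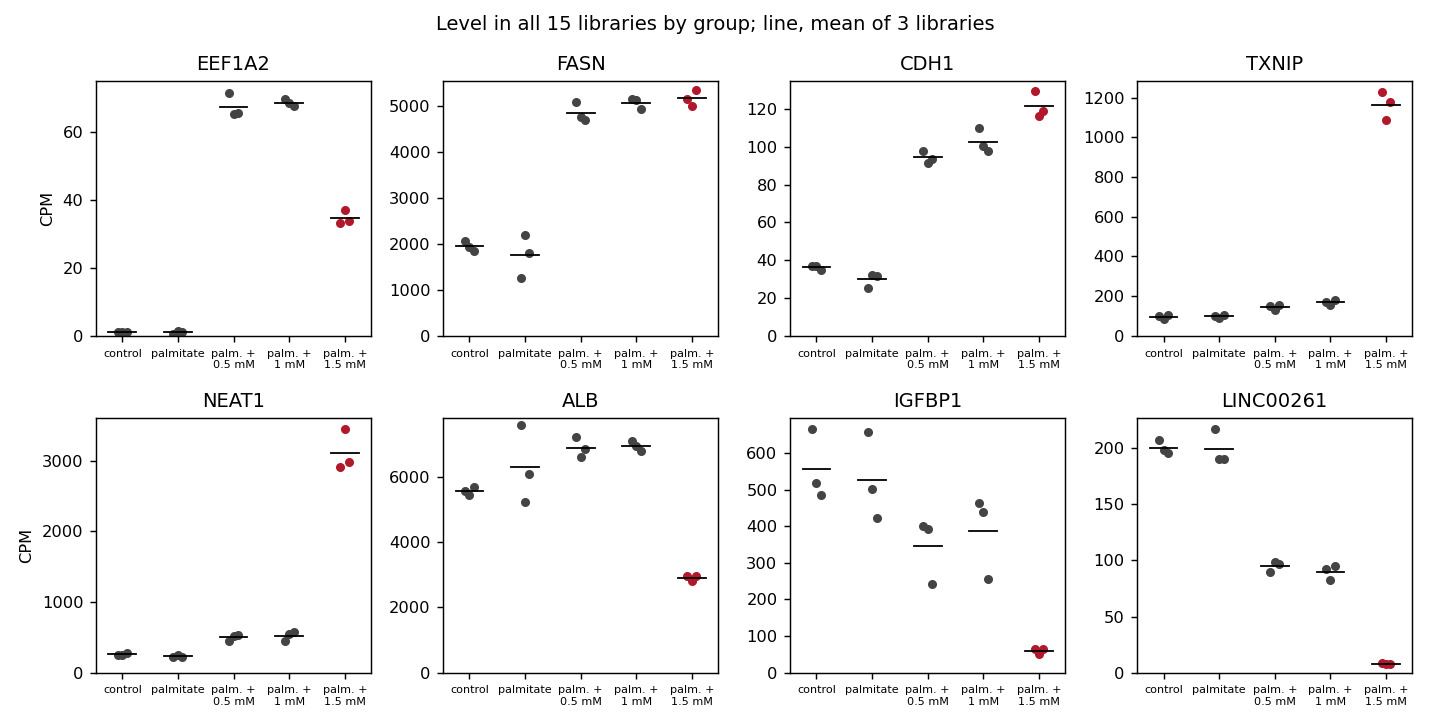
CPM of 8 genes in all 15 libraries by group, from control and palmitate to palmitate with 0.5, 1 and 1.5 mM butyrate, with lines at the means of 3 libraries and high butyrate in red. EEF1A2 is lower at 1.5 mM than at 1 mM, FASN is not called between 1.5 mM and 1 mM, and TXNIP and NEAT1 are far higher and ALB and IGFBP1 far lower at 1.5 mM than at 1 mM.

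Against untreated control cells, high butyrate had 7502 genes higher (36.9%) and 6715 lower (33.1%), together 70% of those tested. This comparison shares the high butyrate libraries with the others, so it is no separate evidence. Palmitate against control had 22 calls (0.108%), 7 higher (0.0345%) and 15 lower (0.0739%). The log2 changes against palmitate and against control are given side by side for 5 genes: log2 2.31 against palmitate and 2.13 against control for CDKN1A, 1.55 and 1.41 for FASN, -2.52 and -2.42 for TRIB3, -3.14 and -3.22 for IGFBP1, and -1.11 and -0.94 for ALB. TGM2, a protein-crosslinking enzyme called lower in palmitate than in control (adjusted p = 0.000108), had 255, 263 and 252 CPM with high butyrate, 56.6, 49.6 and 48.4 CPM with palmitate and 76.9, 81.6 and 76.7 CPM in control, so high butyrate lay above both. MT1G, called higher in palmitate than in control (adjusted p = 0.00226), had 139 ± 16.7 CPM with high butyrate, 27.7 ± 3.01 CPM with palmitate and 14.8 ± 2.11 CPM in control.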

How the data were processed

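RNA was measured by poly(A) paired-end RNA-seq of 15 HepG2 libraries, 3 in each of 5 groups, read on a DNBSEQ-T7 sequencer per the labels. The authors deposited raw counts per Ensembl gene and FPKM, which divides counts by gene length and library size. The submitters' processing notes name FastQC, HISAT2, featureCounts, DESeq2 and the builds GRCh38 and hg38; tool versions, the strand setting and the gene annotation used are not given in the sources used here. Both reads of a pair seem to have been counted, since most low counts are even, so counts exceed fragments.

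Total counts ran from 35349827 to 61086976 per library. From the deposited counts, genes were kept by filterByExpr over the 5 groups (20309 of 39133), scaled by TMM and tested with the quasi-likelihood test of edgeR 4.0.16 (R 4.3.3) in 1 fit of all 15 libraries with group as the only term. P-values were adjusted by Benjamini-Hochberg over all genes tested, and genes under 0.05 were called. CPM uses TMM-scaled library sizes, and a standard error is the log2 change divided by the square root of F. Gene lists, genes and promoter motifs were chosen with earlier results of these data known, so their counts are descriptions.

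Named genes are those called without overlap between groups and averaging at least 2 log2 CPM with the 12 largest rises and 12 largest falls, the 8 and 8 among those averaging at least 8, the 6 and 6 against medium butyrate, up to 4 members a direction of each list with the smallest adjusted p, and a panel of 34, of which 3 were not tested. Some named genes are not reported here. Of 917 list names, 9 had no row and 62 were not tested. Gene positions and types are from GENCODE 29, which held 37848 of the table's IDs. Besides the genes with an overlap given in the text, exons of ACSM3, CEBPB, NR1I3 and PSMB8 share at least 10% of their bases with another gene. Promoters are RefSeq windows on GRCh38.p14, present for 61.6% of tested genes, so motif shares over called genes were not compared. Alternatives were other scalings and filters, DESeq2 1.42.0, limma 3.58.1 on log2(FPKM + 1) and log2(FPKM + 0.1), a replicate block and leaving out each library. Figures were drawn with matplotlib 3.10.9.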

Additional observations from a re-analysis of the deposited data

How the results depend on the processing

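Asking for at least a 2-fold change left 4869 genes higher and 2732 lower with high butyrate than with palmitate, 2251 and 1518 against medium butyrate, and 4618 and 2610 against control. Leaving out each library in turn gave 7412 to 7867 higher and 6563 to 6885 lower against palmitate, 4901 to 5091 and 5392 to 5552 against medium butyrate, and 7167 to 7320 and 6440 to 6625 against control. No call against palmitate changed direction under any alternative except 25 without palmitate library 1, where 13667 of 14530 calls were kept in their direction. Library totals moved the median log2 change over all genes to 0.19, and FPKM with a pseudocount of 0.1 to 0.16, against 0.06 with TMM, and rises made up 50.5% to 59.7% of calls, against 52.7%. The cause was not tested.

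The sign turned for the log2 change of EMP1 (0.0874), MSN (1.23) and MGLL (0.48) without palmitate library 1, over a range by left-out library that began at -5.35, -5.16 and -3.14. Changes near 0 that were not called also turned: CPT1A (-0.0444 without a filter, -0.00891 with only the libraries compared, -0.0536 to 0.0568 by left-out library), PLIN2 (-0.0230 without a filter, -0.0266 to 0.0830 by left-out library), and IRS2 (0.00469 with DESeq2 size factors, 0.0980 with library totals, 0.0380 at 1 CPM in 3 libraries, 0.00258 with DESeq2, 0.0215 and 0.0690 on FPKM with pseudocounts of 1 and 0.1, -0.126 to 0.0171 by left-out library). In the replicate block, 7656 genes were higher and 6833 lower against palmitate, 5428 and 5814 against medium butyrate, and 7472 and 6711 against control. Same-numbered libraries of high butyrate and palmitate deviated with r = 0.016, -0.032 and -0.12 across genes, and none of the 3 high butyrate libraries correlated best with its own number in palmitate, while 1 did in medium butyrate and 1 in control, so the numbers are not taken as pairs. Low counts limit precision for genes near silence in palmitate.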

Other observations

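Shares of calls by gene type moved with abundance. Of 1585 lincRNA genes tested, 46.8% rose and 17.8% fell with high butyrate, and of 1795 antisense or sense-overlapping RNA genes 35.4% rose and 16.4% fell, against 37.7% and 33.8% of all genes. Most of both types average below 0 log2 CPM. Among genes of that level, 47.3% of 978 lincRNA genes, 32.3% of 1216 antisense or sense-overlapping RNA genes and 64.6% of 2390 protein-coding genes rose, and among those from 2 to 5, 42.1% of 183, 43.6% of 163 and 34.3% of 5004 rose, in the same order of types. Of 1714 pseudogenes 22.8% rose and 25.1% fell. Without a known strand setting, reads of antisense RNA genes cannot be told apart from those of the genes they overlap, and none of these differences between types was tested.

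Counts were also spread differently over genes. The 50 most abundant genes of a library took 25.6% ± 1.07 of counts with high butyrate and 22.2% ± 0.633 with palmitate (SD, n = 3 each), and histone genes 0.230% ± 0.00251 with high butyrate and 0.193% ± 0.0141 with palmitate. The differences in percentage points by left-out library were 2.83 to 3.88 and 0.0312 to 0.0447, and 2.43 to 3.64 for the mitochondrial genome.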
